A study of Homo sapiens with 8 samples.

Results

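RNA of SUDHL6 cells given the degrader MS8815 was compared with RNA of the same cells given the inhibitor EPZ-6438. SUDHL6 is an established human lymphoma line, a diffuse large B-cell lymphoma of the germinal-centre class, grown in RPMI1640. The labels name MS8815 an EZH2 PROTAC, EPZ-6438 (tazemetostat) an inhibitor of the enzymatic SET domain of EZH2, and the vehicle DMSO. All groups used here were treated for 18 h, the compounds at 2.5 µM, with no genetic change named. The comparison takes 4 of the 8 libraries of the series, 2 per compound, and leans on the 2 DMSO libraries for the scale and the spread. It covers the 17634 genes that both deposited tables hold, of 18744 in the MS8815 table and 18320 in the EPZ-6438 table, so 1110 and 686 genes had no value in the other table. The labels call the libraries duplicates without saying whether they came from separate cultures, so a p-value here covers library-to-library spread only, and that spread could be purely technical. They also name 2 library kits without saying which served which library.

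EZH2 is the catalytic subunit of polycomb repressive complex 2 (PRC2), which places methyl groups on lysine 27 of histone H3 and so keeps genes silent. Germinal-centre B cells carry high EZH2, and it holds down cell-cycle inhibitors and genes of plasma-cell differentiation there. An inhibitor of the SET domain blocks the methyl transfer and leaves the protein in place, while a PROTAC joins its target to a ubiquitin ligase so that the proteasome removes the protein. RNA levels report neither the amount of EZH2 protein nor the histone mark, and neither was measured in these files.

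The MS8815 libraries stood apart from the other 4 before any gene group is considered. Their estimated depth was 13.0 and 14.6 M reads, against 26.0 to 31.6 M reads for EPZ-6438 and DMSO, and their replicates differed by a median of 0.21 on the log2 scale against 0.137 and 0.133. B-cell markers were well expressed in all 6 libraries, as the label of the line calls for. The normalised reads of the 13 pan-B-cell genes summed to 54146.5 and 53554.7 with MS8815, to 108955.1 and 109366.2 with EPZ-6438, and to 108230.3 and 109412.8 with DMSO. Markers of adherent epithelial cells and fibroblasts, which a lymphoma line is not known for, were read in all 6 libraries too, with none of the 24 measured members at 0. Their sum was 66066.1 and 66131.3 with MS8815, 12792.4 and 12791.5 with EPZ-6438, and 11351.3 and 11246.7 with DMSO. The member VIM made up most of the EPZ-6438 and DMSO sums. It had 25528 and 25479 normalised reads with MS8815, 9649 and 9666 with EPZ-6438 and 8747 and 8922 with DMSO. These sums therefore say little of the other members, whose contrast was mostly larger. All 24 were called higher with MS8815, with a median difference of 3.70 on the log2 scale and quartiles of 3.45 and 3.77. KRT8, an epithelial keratin, had 3275 and 3247 normalised reads with MS8815, 255 and 228 with EPZ-6438 and 199 and 192 with DMSO, and its difference was 3.75 ± 0.09 (SE, limma adjusted p = 5.72e-07). S100A6, a calcium-binding protein of adherent cells, had 9324 and 9494 normalised reads with MS8815, 747 and 704 with EPZ-6438 and 594 and 541 with DMSO. In both genes each MS8815 library lay far above the 4 others, which sat close together. Over all 17634 genes, 1448 (8.21%) lay between 3 and 4.5 on the log2 scale, and this band, chosen after the values were seen, held 20 of the 24 adherent-cell markers. VIM, at 1.40, lay outside it. A gene with many reads in the other libraries can thus miss the band, which does not count every gene that may carry the signal. Of T-cell and NK-cell markers 3 of 8 were measured and none was called, and of myeloid markers 4 of 8 were measured and 2 were called higher. The part of the adherent-cell signal in the results below was not tested, and the number of members in its band is given beside the groups that hold any. Below it is called the adherent band, which names a range of values and not an origin. It also held genes of other groups, such as 11 of 13 measured RNAs that lack a poly(A) tail.

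Each gene was compared on the scale of log2(normalised count + 1) with limma, fitted to the 6 libraries and adjusted by Benjamini-Hochberg over the 17634 genes. A difference is MS8815 minus EPZ-6438, so 1 is a doubling, and the added 1 understates the differences of low genes. Levels are normalised reads per library, in the size-factor scale of the MS8815 table. At an adjusted p under 0.05 limma called 8413 genes (47.7%), of which 4127 (23.4%) were higher and 4286 (24.3%) lower with MS8815. A called difference of at least 2-fold was found in 2887 genes in the higher direction (16.4%) and in 528 in the lower direction (2.99%). The 2 libraries of each compound did not overlap in 12608 genes (71.5%). The middle of the distribution was near 0, with a median of -0.05 and quartiles of -0.41 and 0.64, and its upper end was long, with 5% of genes above 3.53 and 5% below -1.17.

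Direction followed the level of a gene in the vehicle. Among genes with a DMSO mean under 10 normalised reads, 31.5% were called higher and 1.95% lower. From 10 to under 100 the shares were 33.5% and 6.11%, and from 100 to under 1000 they were 20.5% and 22.9%. Among the 4515 genes from 1000 to under 10000, 11.3% were higher and 57.8% lower, and among the 303 genes above that 13.5% were higher and 77.6% lower. Low genes were thus called mostly in the higher direction and abundant genes mostly in the lower direction. The median difference was -0.27 from 1000 to under 10000 and -0.34 above that. Counts of lower members in lists of abundant genes below are to be read beside these shares.

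**Figure D1:**
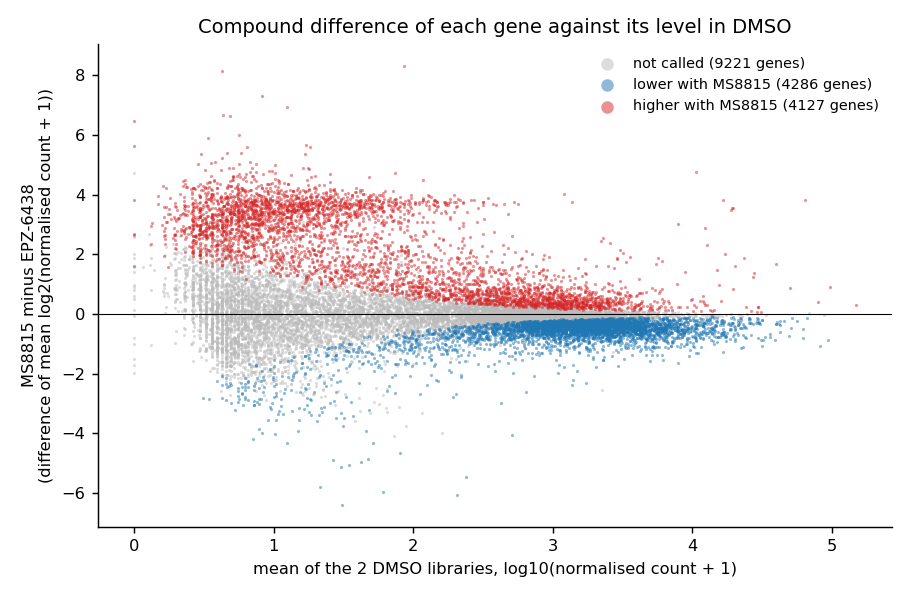
Each point is 1 of the 17634 genes, with the log10 of its mean DMSO level plus 1 on the x axis and its MS8815 minus EPZ-6438 difference in log2(normalised count + 1) on the y axis. A dense red band of genes called higher lies between 3 and 4.5 at low and middle levels, and the blue genes called lower gather just under 0 at high levels.

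The split between higher and lower rested on the scaling. As deposited, 49.1% of the called genes were higher. Median-of-ratios scaling called 24% of all genes higher and 23.3% lower, so 50.7% of its calls were higher. Quantile normalisation called 19.9% higher and 31.7% lower, so 38.6% of its calls were higher. In the upper 50% of genes by mean log2 level over the 6 libraries the share was 28.1% (1518 of 5398). When the libraries were scaled to 28 pan-B-cell and germinal-centre genes, 70.7% of all genes were called higher and 1.43% lower, so 98% of the calls were higher, and the median of all genes moved by 0.86. That last scaling treats the B-cell genes as exact, yet their own differences had an SD of 0.67 and ran from -2.31 to 1.09. A total of 3099 genes (17.6%) were called higher under all 4 scalings and 244 (1.38%) lower. The median of all genes moved by 0.02 under median-of-ratios scaling and by -0.14 under quantile normalisation. A gene called higher as deposited was thus nearly bound to stay so under median-of-ratios and B-cell scaling. Mainly quantile normalisation could remove its call, and counts of genes higher under all 4 scalings are to be read with this limit. Values below are as deposited unless a scaling is named, and relative to a median gene at -0.05.

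**Figure D2:**
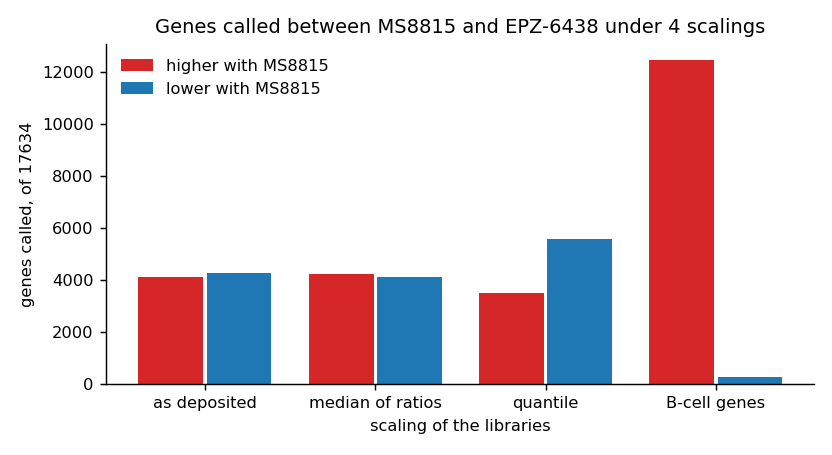
Bars count the genes called higher (red) or lower (blue) with MS8815 than with EPZ-6438, of 17634, under 4 scalings of the libraries. The deposited and median-of-ratios scalings split the calls almost evenly, quantile normalisation gives 3509 higher and 5588 lower, and scaling to the B-cell genes leaves 253 lower.

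Among the PRC2 subunits, the transcript of the targeted catalytic subunit was slightly lower with the degrader, about as much as the median gene of its level. Genes with a DMSO mean from 1000 to under 10000 had a median of -0.27, and 57.8% of them were called lower. EZH2 (GRCh38 chromosome 7, 148807383 to 148884321, minus strand) had 2479 and 2345 normalised reads with MS8815, 2929 and 2961 with EPZ-6438 and 2819.8 and 2993 with DMSO. The MS8815 pair lay under the 4 other libraries, which overlapped. The difference was -0.29 ± 0.05 (SE, limma adjusted p = 0.00315), with a 95% interval of -0.41 to -0.17, and EPZ-6438 minus DMSO was 0.02 ± 0.05. It was -0.11 and not called after quantile normalisation and 0.60 after B-cell scaling, so its sign depended on the scaling. EZH1, the second H3K27 methyltransferase, went the other way with 407 and 456 normalised reads with MS8815, 297 and 317 with EPZ-6438 and 331 and 341 with DMSO, a difference of 0.49 ± 0.11 (SE, limma adjusted p = 0.00864) that was 0.22 and not called after quantile normalisation. EED, the subunit that reads the methylated mark, had 175 and 141 normalised reads with MS8815, 280.0 and 240.3 with EPZ-6438 and 288 and 302 with DMSO. It was lower by limma (-0.72 ± 0.16 SE, limma adjusted p = 0.00772), and again its sign turned under B-cell scaling (0.16). Without EPZ-6438 replicate 1 neither kept its call, with EZH1 at 0.44 (limma adjusted p = 0.0634) and EED at -0.61 (limma adjusted p = 0.0638). SUZ12, the scaffold of the core complex, was not called, at -0.06 with an interval of -0.19 to 0.06.

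The other subunits of the list split. JARID2, which helps recruit the complex to chromatin, had 557 and 585 normalised reads with MS8815, 261 and 263 with EPZ-6438 and 216 and 243 with DMSO, a difference of 1.12 ± 0.11 (SE, limma adjusted p = 0.000195). PHF1, a polycomb-like subunit that binds methylated lysine 36 of histone H3, had 806 and 861 normalised reads with MS8815, 327 and 266 with EPZ-6438 and 308 and 319.8 with DMSO, a difference of 1.49 ± 0.12 (SE, limma adjusted p = 7.8e-05). The histone chaperones RBBP4 (-0.60 ± 0.03 SE, limma adjusted p = 1.79e-05) and RBBP7 (-0.47 ± 0.03 SE, limma adjusted p = 2.22e-05) were lower, and PHF19, another polycomb-like subunit, was not called (-0.13, interval -0.33 to 0.06, but -0.24 and called without MS8815 replicate 2). Of the 11 subunits 3 were higher and 6 lower as deposited, with a median of -0.28 that became 0.60 under B-cell scaling. JARID2 and PHF1 were the 2 subunits called higher under all 4 scalings, and no subunit was called lower under all of them.

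Genes that EZH2 is known to repress in germinal-centre lymphoma were mostly higher with the degrader. Of 16 listed 14 were measured, and 12 were called higher and 2 lower, with a median of 1.54, and 9 were higher under all 4 scalings. The 6 members in the upper 50% by level over the 6 libraries had a median of 0.72. CDKN1A, the p21 inhibitor of cyclin-dependent kinases (GRCh38 chromosome 6, 36676460 to 36687339, plus strand), had 1447 and 1210.5 normalised reads with MS8815, 145 and 114 with EPZ-6438 and 104 and 94.2 with DMSO. Both MS8815 libraries were several-fold above all others, and the EPZ-6438 pair lay above the DMSO pair. The difference between compounds was 3.36 ± 0.17 (SE, limma adjusted p = 8.78e-06), and EPZ-6438 minus DMSO was 0.38 ± 0.17 without a call. PRDM1, which encodes BLIMP1, the regulator of plasma-cell differentiation, had 63.5 and 67 normalised reads with MS8815, 33.3 and 16.5 with EPZ-6438 and 12.3 and 15.5 with DMSO. It was higher by limma at 1.44 ± 0.40 (SE, limma adjusted p = 0.0229), fell out of the calls after quantile normalisation (0.35), and its EPZ-6438 pair differed 2-fold between replicates. Its call was also lost with all 8 libraries in the fit (limma adjusted p = 0.115), without EPZ-6438 replicate 2 (0.95, limma adjusted p = 0.132) and without MS8815 replicate 2 (1.40, limma adjusted p = 0.0541). TNFRSF21, a death receptor, had a difference of 3.71 ± 0.18 (SE, limma adjusted p = 8.24e-06) from 1192 and 1358 normalised reads with MS8815, 103 and 90.7 with EPZ-6438 and 63.2 and 84.8 with DMSO. KLF6, a zinc-finger factor, had a difference of 1.26 ± 0.08 (SE, limma adjusted p = 3.26e-05). CDKN2A, the locus of p16 and p14ARF and a well-known polycomb target, went down instead, with 1677 and 1609.7 normalised reads with MS8815, 3228 and 3226 with EPZ-6438 and 3074 and 3148 with DMSO, a difference of -0.97 ± 0.05 (SE, limma adjusted p = 7.12e-06), which was -0.09 under B-cell scaling. In this list 5 of the 14 members lay in the band from 3 to 4.5 that held the adherent-cell markers, against 8.21% of all genes.

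Developmental transcription factors kept silent by polycomb in most differentiated cells showed the same sign. Of 34 listed 24 were measured, 19 were called higher and 1 lower, the median was 2.69, and 14 were higher under all 4 scalings. SOX9, a factor of cartilage and many epithelia, had 496 and 444 normalised reads with MS8815, 54 and 37.7 with EPZ-6438 and 35.5 and 39.5 with DMSO, a difference of 3.35 ± 0.23 (SE, limma adjusted p = 3.67e-05). GATA6, an endoderm and heart factor, had 294 and 251 normalised reads with MS8815, 15.6 and 31.7 with EPZ-6438 and 14.6 and 11.5 with DMSO, a difference of 3.55 ± 0.38 (SE, limma adjusted p = 0.000266). KLF5, a factor of epithelial progenitors, had 368 and 397 normalised reads with MS8815, 113 and 113 with EPZ-6438 and 122 and 107 with DMSO, a difference of 1.75 ± 0.15 (SE, limma adjusted p = 8.76e-05). In all 3 genes the EPZ-6438 and DMSO libraries lay close together and the MS8815 libraries were far above. RUNX2, the factor of bone formation, had 246 and 283 normalised reads with MS8815, 44.9 and 34.8 with EPZ-6438 and 59.8 and 44.6 with DMSO, a difference of 2.71 ± 0.25 (SE, limma adjusted p = 0.000126), with the same order. SOX2 (2.05, interval 0.33 to 3.78) and HOXC6 (0.81, interval -0.52 to 2.14) were low in every library and not called, though SOX2 passed without DMSO replicate 1 or 2 (2.05, limma adjusted p = 0.0351 and 0.0413). Of the 24, 1 was in the upper 50% of genes by level over the 6 libraries, and it stood at -0.56. The adherent band held 9 of the 24, against 8.21% of all genes, and the part of the adherent-cell signal here was not tested.

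**Figure D3:**
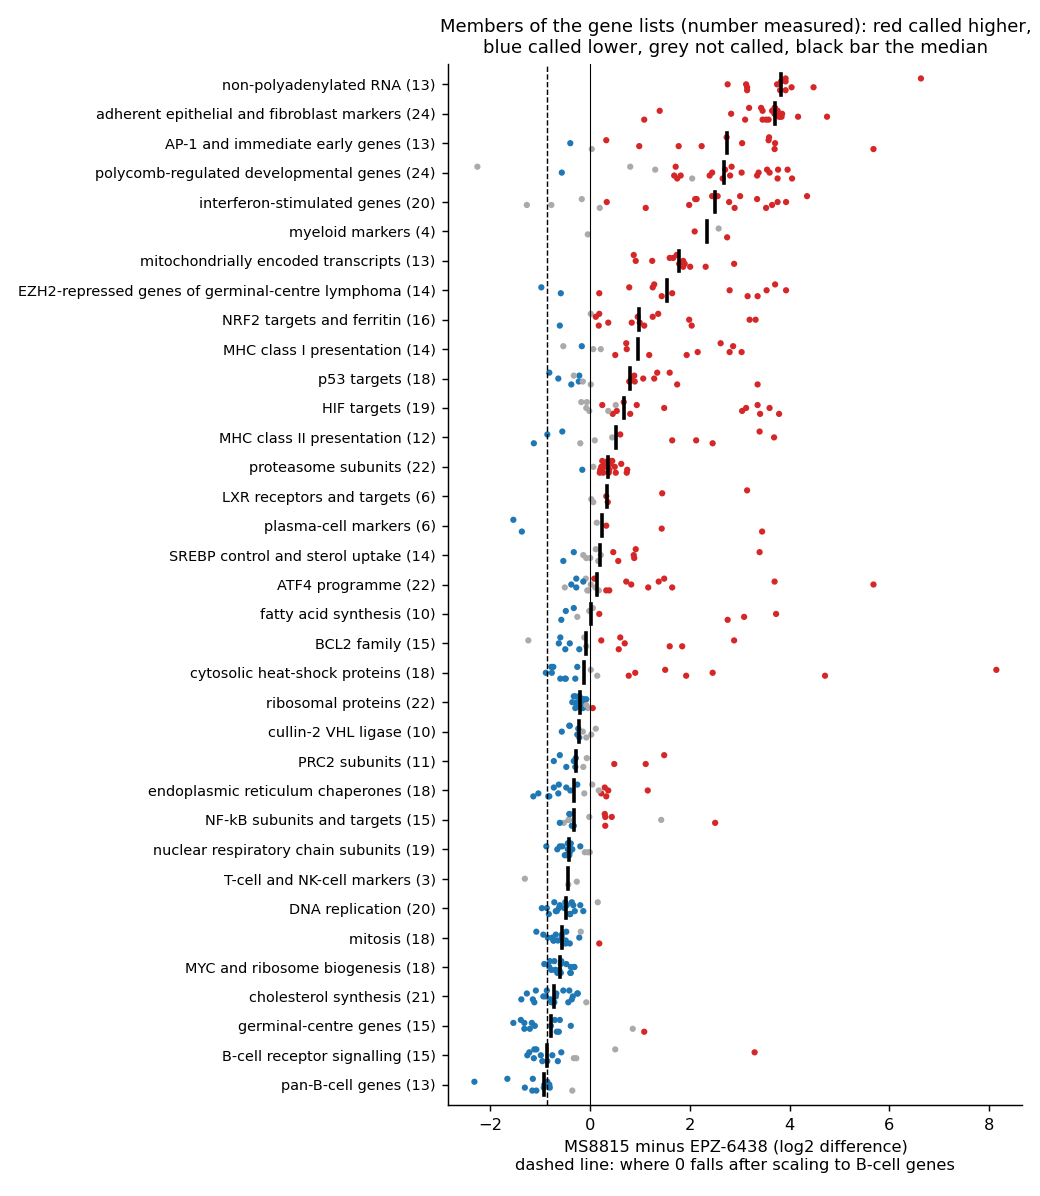
Each row is a gene list with its number of measured members, each point a member's MS8815 minus EPZ-6438 log2 difference, and the black bar the median. The adherent-cell and non-polyadenylated RNA lists have medians of 3.70 and 3.83, and the 3 B-cell lists lie near the dashed line that marks 0 after B-cell scaling, with medians of -0.78 to -0.92. The pan-B-cell and germinal-centre genes set that line, so the place of those lists near it is by construction.

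Genes of cholesterol synthesis were lower with the degrader than with the inhibitor. Of the 21 genes 20 were called lower and none higher, with a median of -0.71, which was -0.67 after quantile normalisation and 0.17 under B-cell scaling. HMGCS1, which makes HMG-CoA (GRCh38 chromosome 5, 43289395 to 43313512, minus strand), had 1838 and 2090.3 normalised reads with MS8815, 4949 and 5209 with EPZ-6438 and 5539 and 5683 with DMSO. Its MS8815 libraries were less than 50% of every other library, and the difference was -1.37 ± 0.07 (SE, limma adjusted p = 7.5e-06). SQLE, the squalene epoxidase, had 1581 and 1669 normalised reads with MS8815, 3509.9 and 3483 with EPZ-6438 and 3947 and 4038 with DMSO, a difference of -1.11 ± 0.05 (SE, limma adjusted p = 4.59e-06). IDI1, the isopentenyl diphosphate isomerase, had 2246 and 2065 normalised reads with MS8815, 4714 and 4803 with EPZ-6438 and 5326 and 5318 with DMSO, a difference of -1.14 ± 0.05 (SE, limma adjusted p = 5.18e-06), and FDPS, the farnesyl diphosphate synthase, had a difference of -0.88 ± 0.05 (SE, limma adjusted p = 1.33e-05). In these genes EPZ-6438 stayed within 0.19 of DMSO on the log2 scale. ACAT2, the thiolase at the head of the pathway, was the member without a call, at -0.07 with an interval of -0.24 to 0.10. Under B-cell scaling 10 members were higher and 4 lower, and the 4 that were lower under every scaling were HMGCS1, IDI1, SQLE and TM7SF2. TM7SF2, a sterol reductase named for this after its values were seen, had 237 and 242 normalised reads with MS8815, 617 and 535 with EPZ-6438 and 526 and 545 with DMSO, a difference of -1.26 ± 0.11 (SE, limma adjusted p = 8.82e-05). FDPS stood at 0.01 under that scaling.

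SREBP2, the product of SREBF2, is the sterol-sensing factor that switches this pathway on, and SREBP cleavage is controlled by SCAP and the INSIG proteins. The SREBF2 promoter is shown because it was the only one among 16 cholesterol-synthesis and 11 SREBP-list genes with a RefSeq window to hold the sterol element TCACCCCAC on either strand. These letters occur in 151 of 35116 RefSeq windows (0.43%), and the longer form with AT in front, which SREBF2 has, in 16 (0.046%). Each window runs from 250 bases before to 50 after a transcription start, and a match is only a description of the letters. The window is chr22:41832855-41833154 on the plus strand of GRCh38.p14, with the element in capitals.
SREBF2: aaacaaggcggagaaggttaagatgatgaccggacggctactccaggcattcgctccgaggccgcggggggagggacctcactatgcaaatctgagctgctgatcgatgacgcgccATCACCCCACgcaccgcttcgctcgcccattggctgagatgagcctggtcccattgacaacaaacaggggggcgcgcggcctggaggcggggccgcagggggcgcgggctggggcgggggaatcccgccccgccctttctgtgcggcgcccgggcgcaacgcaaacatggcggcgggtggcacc
SREBF2 itself had 5748 and 6173 normalised reads with MS8815, 8590.1 and 8566 with EPZ-6438 and 8965 and 9039 with DMSO, a difference of -0.53 ± 0.04 (SE, limma adjusted p = 5.15e-05), which was 0.36 under B-cell scaling. INSIG1, which retains SCAP in the endoplasmic reticulum, had a difference of -0.32 ± 0.05 (SE, limma adjusted p = 0.00154) and 0.57 under B-cell scaling. NPC2, the lysosomal cholesterol carrier, was higher, with 1614 and 1605 normalised reads with MS8815, 914 and 822 with EPZ-6438 and 749 and 792 with DMSO, a difference of 0.89 ± 0.08 (SE, limma adjusted p = 9.38e-05), while SREBF1 (-0.07, interval -0.23 to 0.10) and SCAP (0.22, interval 0.03 to 0.42) were not called. Across the 14 genes of SREBP control and sterol uptake 6 were higher and 2 lower, with a median of 0.20, and 1 lay in the adherent band.

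Fatty acid synthesis did not follow 1 direction, with 4 of 10 genes higher, 3 lower and a median of 0.03. The desaturases FADS1 (1348 and 1114 normalised reads with MS8815, 189 and 171 with EPZ-6438 and 122 and 121 with DMSO) and FADS2 (1374 and 1178 normalised reads with MS8815, 124 and 177 with EPZ-6438 and 107 and 102 with DMSO) were higher by 2.76 and 3.09. ACSS2, the cytosolic acetyl-CoA synthetase, had 249 and 256 normalised reads with MS8815, 24.7 and 13.2 with EPZ-6438 and 17.5 and 14.1 with DMSO, a difference of 3.73 ± 0.35 (SE, limma adjusted p = 0.000146). FADS2 and ACSS2 lay in the adherent band, 2 of the 10 genes. ACLY, the citrate lyase, was lower (-0.57 ± 0.03 SE, limma adjusted p = 1.72e-05) as deposited and 0.32 under B-cell scaling. The elongases ELOVL5 (-0.01, interval -0.11 to 0.09) and ELOVL6 (0.06, interval -0.13 to 0.26) had intervals well inside 2-fold. Of 6 measured LXR receptors and targets 4 were higher and none lower, with a median of 0.34, and 1 lay in the adherent band. ABCA1, the cholesterol exporter, had a difference of 0.33 ± 0.08 (SE, limma adjusted p = 0.0157), which lost its call without EPZ-6438 replicate 1 (0.34) or 2 (0.32), and NR1H2, the LXR-beta receptor, had a difference of 0.36 ± 0.06 (SE, limma adjusted p = 0.00312).

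B-cell identity genes were lower with the degrader as deposited. Of the 13 pan-B-cell genes 12 were called lower and none higher, with a median of -0.92 that was -0.04 when the same genes set the scale. MS4A1, which encodes CD20, had 4318 and 4309 normalised reads with MS8815, 10704 and 10613 with EPZ-6438 and 10460.5 and 10683 with DMSO, a difference of -1.30 ± 0.03 (SE, limma adjusted p = 4.31e-07). CD79B, a signalling chain of the B-cell receptor, had 11237 and 11337 normalised reads with MS8815, 20387 and 20188 with EPZ-6438 and 20001 and 20397 with DMSO, a difference of -0.85 ± 0.02 (SE, limma adjusted p = 7.69e-07). VPREB3, a partner of the pre-B-cell receptor (GRCh38 chromosome 22, 23752743 to 23754468, minus strand), had 360.5 and 382 normalised reads with MS8815, 1812 and 1892 with EPZ-6438 and 1699.9 and 1779 with DMSO, and at -2.31 ± 0.07 (SE, limma adjusted p = 1.06e-06) it was 1 of the largest falls among well-expressed genes. FCRLA, an Fc-receptor-like protein, had a difference of -1.14 ± 0.02 (SE, limma adjusted p = 2.52e-07). PAX5, the master factor of the lineage, was not called at -0.35, and its MS8815 libraries differed at 2780.0 and 1894.5 normalised reads. Without MS8815 replicate 1 it was called, at -0.63 (limma adjusted p = 0.00642). The drop was unequal: under B-cell scaling 5 members remained lower and 1 was higher, with MS4A1 at -0.42 and CD79B at 0.04. In bulk RNA, a smaller share of RNA from cells of a type and less of a transcript per cell cannot be told apart.

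Germinal-centre genes moved alike, with 13 of 15 measured lower and 1 higher as deposited and a median of -0.78, and with a median of 0.11 under B-cell scaling. IRF8, a factor of the germinal-centre programme, had 858 and 846 normalised reads with MS8815, 2431 and 2493 with EPZ-6438 and 2278 and 2324 with DMSO, a difference of -1.53 ± 0.05 (SE, limma adjusted p = 1.75e-06). RGS13, a regulator of chemokine signalling, had 1918 and 1874 normalised reads with MS8815, 4988 and 4884 with EPZ-6438 and 5173 and 5187 with DMSO, a difference of -1.38 ± 0.04 (SE, limma adjusted p = 8.19e-07). ELL3 had a difference of -1.16 ± 0.05 (SE, limma adjusted p = 3.75e-06) and MEF2B, a factor that helps drive BCL6 expression, -0.78 ± 0.02 (SE, limma adjusted p = 1.55e-06). IRF8, RGS13 and ELL3 stayed below 0 under B-cell scaling, at -0.64, -0.49 and -0.27, and MEF2B did not, at 0.11. All of them are among the genes that set that scale. The scaling centres those genes on 0 by construction, so some had to lie below it and others above.

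B-cell receptor signalling genes were lower in 11 of 15 and higher in 1, with a median of -0.85 (0.03 under B-cell scaling), and 1 lay in the adherent band. INPP5D, the SHIP1 phosphatase, had a difference of -1.25 ± 0.05 (SE, limma adjusted p = 4.31e-06). PIK3AP1, the adaptor that brings in PI3-kinase, had a difference of -1.12 ± 0.06 (SE, limma adjusted p = 1.11e-05). The kinases BTK (-0.98 ± 0.04 SE, limma adjusted p = 5.65e-06) and SYK (-0.95 ± 0.04 SE, limma adjusted p = 3.79e-06) were lower as deposited and at -0.09 and -0.06 under B-cell scaling. LYN (-0.32) and PTPN6 (-0.27) were not called, though LYN was without EPZ-6438 replicate 2 (-0.49) and both were after quantile normalisation (-0.53 and -1.01). Plasma-cell markers split, with 3 of 6 measured higher and 2 lower. JCHAIN, the joining chain of secreted immunoglobulin, had 2256 and 2328 normalised reads with MS8815, 5912 and 5828 with EPZ-6438 and 5998 and 6054 with DMSO, a difference of -1.36 ± 0.04 (SE, limma adjusted p = 7.69e-07). MZB1, a chaperone of antibody-secreting cells, had a difference of -1.53 ± 0.04 (SE, limma adjusted p = 7.69e-07). SDC1, the plasma-cell marker CD138 that epithelia also carry, had 385 and 405 normalised reads with MS8815, 35.2 and 35.1 with EPZ-6438 and 35.5 and 38.1 with DMSO, a difference of 3.45 ± 0.19 (SE, limma adjusted p = 1.5e-05), inside the adherent band.

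Genes of DNA replication were lower in 19 of 20 and higher in none, with a median of -0.47, and the median was 0.41 under B-cell scaling. PCNA, the sliding clamp, had 6590.4 and 6974 normalised reads with MS8815, 10828 and 10949 with EPZ-6438 and 11443 and 11662 with DMSO, a difference of -0.68 ± 0.03 (SE, limma adjusted p = 1.05e-05). The helicase subunits MCM5 (-0.60 ± 0.04 SE, limma adjusted p = 3.86e-05) and MCM7 (-0.40 ± 0.03 SE, limma adjusted p = 3.29e-05) and the GINS subunit GINS2 (-0.82 ± 0.05 SE, limma adjusted p = 2.06e-05) were lower, and CCNE2, a cyclin of S-phase entry, was not called (0.16). Mitotic genes were lower in 16 of 18 and higher in 1, with a median of -0.56 (0.33 under B-cell scaling). PLK1, the polo-like kinase, had 3422 and 3562 normalised reads with MS8815, 7322 and 7339 with EPZ-6438 and 7751 and 7688 with DMSO, a difference of -1.07 ± 0.03 (SE, limma adjusted p = 1.58e-06). CDK1 had 3709.8 and 3842 normalised reads with MS8815, 7198 and 7188 with EPZ-6438 and 7351 and 7223 with DMSO, a difference of -0.93 ± 0.03 (SE, limma adjusted p = 2.71e-06), and CCNA2 (-0.75 ± 0.04 SE, limma adjusted p = 7.22e-06) and CDC20 (-0.84 ± 0.04 SE, limma adjusted p = 7.44e-06) were lower too. Under B-cell scaling PLK1 was -0.18, CDK1 -0.04 and CCNA2 0.14, so of these 3 PLK1 kept the clearest drop. All 18 genes of the MYC and ribosome biogenesis list were lower, with a median of -0.60 that became 0.29 under B-cell scaling. MYC had 3559.8 and 3953 normalised reads with MS8815, 4888 and 4967 with EPZ-6438 and 5275 and 5149 with DMSO, a difference of -0.39 ± 0.05 (SE, limma adjusted p = 0.00089). NCL, the nucleolar protein nucleolin, had a difference of -0.77 ± 0.02 (SE, limma adjusted p = 1.52e-06), and NOP56, a core protein of box C/D particles, had a difference of -0.71 ± 0.04 (SE, limma adjusted p = 1.88e-05). The ribosomal proteins themselves differed little, with 19 of 22 lower, a median of -0.20 (0.69 under B-cell scaling) and RPL4 at -0.35 ± 0.02 (SE, limma adjusted p = 8.21e-06). All members of the replication, mitosis, MYC and ribosomal lists were in the upper 50% by level over the 6 libraries. Over all genes 24.3% were called lower. The share was 57.8% at a DMSO mean from 1000 to under 10000 (median -0.27) and 77.6% above that (median -0.34). The counts of lower members are to be read beside these shares.

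**Figure D4:**
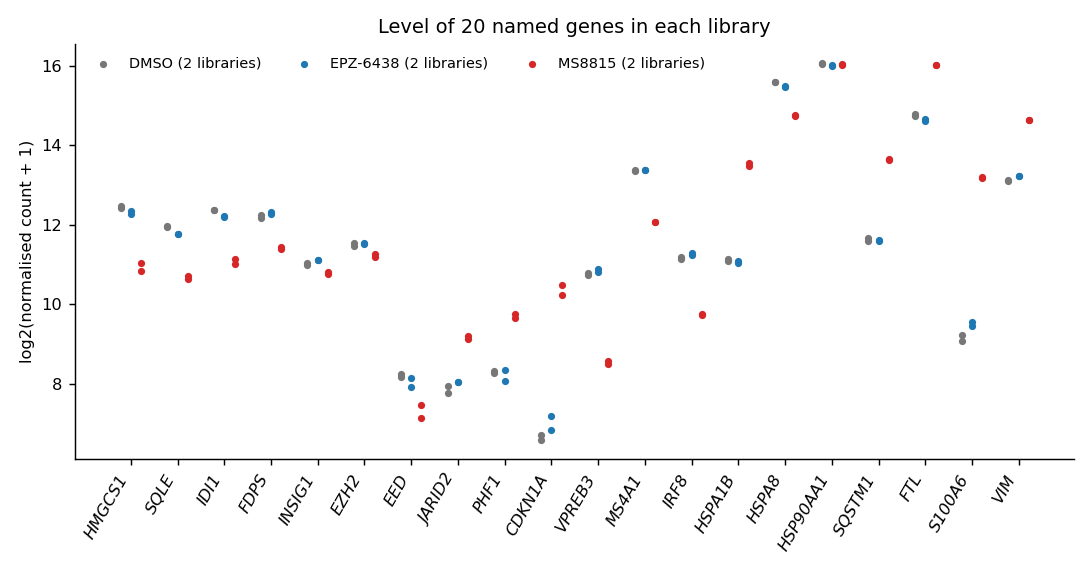
Points are the 2 libraries of each group for 20 genes named in the text, as log2(normalised count + 1). The EPZ-6438 points sit on or beside the DMSO points, and the MS8815 points are lower for HMGCS1, SQLE, IDI1, VPREB3, MS4A1 and IRF8 and higher for CDKN1A, HSPA1B, SQSTM1, FTL and S100A6, while the HSP90AA1 points lie together.

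Cytosolic heat-shock genes split by member instead of moving together. The inducible HSP70 genes were far higher with the degrader, while HSPA8, HSPD1 and HSPH1 were lower and HSP90AA1 was level, as deposited. The heat-shock element, searched on both strands as GAA, NN, TTC, NN and GAA in a row, is the site that heat-shock factor 1 is known to bind. It lies in 172 of 35116 RefSeq windows (0.49%) and in the windows of 6 of 17 heat-shock genes that have one, which are DNAJA1, HSP90AA1, HSP90AB1, HSPA6, HSPA8 and HSPD1. The windows of 3 of these are printed, chosen after their values were seen because they hold the same letters and have very different differences, with the element in capitals. They are HSPA6 at chr1:161524290-161524589 on the plus strand, HSP90AA1 at chr14:102086995-102087294 on the minus strand and HSPA8 at chr11:123062087-123062386 on the minus strand, all GRCh38.p14.
HSPA6: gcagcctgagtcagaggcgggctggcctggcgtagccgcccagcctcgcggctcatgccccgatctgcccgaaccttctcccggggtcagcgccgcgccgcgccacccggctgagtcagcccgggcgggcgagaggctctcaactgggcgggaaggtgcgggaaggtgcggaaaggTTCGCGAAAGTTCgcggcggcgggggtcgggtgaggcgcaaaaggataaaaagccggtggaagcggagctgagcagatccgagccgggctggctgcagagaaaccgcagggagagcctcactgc
HSP90AA1: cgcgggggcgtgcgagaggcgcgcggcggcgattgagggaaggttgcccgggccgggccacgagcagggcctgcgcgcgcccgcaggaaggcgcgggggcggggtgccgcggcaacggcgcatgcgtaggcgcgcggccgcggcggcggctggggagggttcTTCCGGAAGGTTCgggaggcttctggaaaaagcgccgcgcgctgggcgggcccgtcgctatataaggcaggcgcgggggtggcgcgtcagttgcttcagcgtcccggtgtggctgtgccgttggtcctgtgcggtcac
HSPA8: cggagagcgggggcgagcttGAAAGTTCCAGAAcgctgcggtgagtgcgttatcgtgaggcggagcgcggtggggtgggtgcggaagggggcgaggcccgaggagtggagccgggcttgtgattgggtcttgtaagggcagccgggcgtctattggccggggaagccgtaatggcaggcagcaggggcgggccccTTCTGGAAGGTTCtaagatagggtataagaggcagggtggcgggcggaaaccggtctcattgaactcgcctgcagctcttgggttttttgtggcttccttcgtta
HSPA6, a strictly inducible HSP70, had 858 and 862 normalised reads with MS8815, 0.651 and 4.61 with EPZ-6438 and 3.29 and 3.24 with DMSO. It was close to silent in the 4 other libraries and its difference was 8.14 ± 0.58 (SE, limma adjusted p = 4.04e-05). HSPA8, the constitutive HSP70 with 2 copies of the element, had 27639 and 27766 normalised reads with MS8815, 45829.8 and 46287 with EPZ-6438 and 49225 and 49247 with DMSO, a difference of -0.73 ± 0.02 (SE, limma adjusted p = 4.47e-07), which was 0.15 under B-cell scaling. HSP90AA1, the inducible HSP90, had 66759 and 67819.7 normalised reads with MS8815, 66139.8 and 66254 with EPZ-6438 and 67763 and 69300.0 with DMSO, a difference of 0.02 with an interval of -0.02 to 0.06, and no call as deposited. It was -0.74 and called after quantile normalisation, and 0.91 under B-cell scaling. The same letters were thus found in a promoter whose gene was far higher, in 1 whose gene was lower and in 1 whose gene was not called, as deposited.

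Other members filled in that split. HSPA1B, the main stress-inducible HSP70, had 11985 and 11498 normalised reads with MS8815, 2089.5 and 2163 with EPZ-6438 and 2173 and 2276 with DMSO, a difference of 2.46 ± 0.05 (SE, limma adjusted p = 2.09e-07), and its near-identical copy HSPA1A had 1135 and 1284 normalised reads with MS8815, 48 and 42.2 with EPZ-6438 and 15 and 33.4 with DMSO, a difference of 4.71 ± 0.35 (SE, limma adjusted p = 4.76e-05). Reads of these copies may have been divided between them by the counting, so their separate values are uncertain. HSPD1, the mitochondrial HSP60, had a difference of -0.77 ± 0.03 (SE, limma adjusted p = 1.62e-06), and HSPH1, the HSP110 partner of HSP70, had a difference of -0.88 ± 0.04 (SE, limma adjusted p = 4.22e-06), and they were 0.11 and 0.01 under B-cell scaling. Of 18 measured genes 7 were higher and 9 lower, with a median of -0.11 (0.77 under B-cell scaling), and the 7 were higher under all 4 scalings. None of the 18 lay in the adherent band, where 8.21% of all genes did, but HSPA1A and HSPA6 lay above it. Genes with many reads in the other libraries can miss the band, so the part of the adherent-cell signal here was not tested.

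Targets of NRF2, the factor of the oxidative stress response, and the ferritins were higher with the degrader. Of 16 genes 14 were called higher and 1 lower, the median was 0.98, and the 14 were higher under all 4 scalings. SQSTM1, the autophagy receptor p62, had 13014 and 12765 normalised reads with MS8815, 3169 and 3117 with EPZ-6438 and 3266 and 3113 with DMSO, a difference of 2.04 ± 0.04 (SE, limma adjusted p = 2.35e-07). FTL and FTH1, the ferritin chains that store iron, had a difference of 1.37 ± 0.03 (SE, limma adjusted p = 2.77e-07) and 0.96 ± 0.03 (SE, limma adjusted p = 7.69e-07), and FTL had 66442 and 66554 normalised reads with MS8815, 26242 and 25151 with EPZ-6438 and 27372 and 28418 with DMSO. TXNRD1, the cytosolic thioredoxin reductase, had 14599.5 and 14138 normalised reads with MS8815, 7196 and 7144 with EPZ-6438 and 7728 and 7702 with DMSO, a difference of 1.00 ± 0.03 (SE, limma adjusted p = 1.01e-06). In these 4 genes each pair of MS8815 libraries agreed closely and lay above all others, and the adherent band held 2 of the 16. GCLC, the catalytic subunit of glutathione synthesis, was not called (0.02, interval -0.55 to 0.59).

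Proteasome subunits were higher by a small and even amount. Of 22 subunits 20 were called higher and 1 lower, with a median of 0.37, and 20 were higher under all 4 scalings. PSMB4 had 7832 and 7741 normalised reads with MS8815, 4687 and 4640.1 with EPZ-6438 and 4530.1 and 4787 with DMSO, a difference of 0.74 ± 0.04 (SE, limma adjusted p = 1.11e-05), and PSMC4, an ATPase of the regulatory particle, had 5646 and 5840.4 normalised reads with MS8815, 3341 and 3482 with EPZ-6438 and 3436 and 3378 with DMSO, a difference of 0.75 ± 0.04 (SE, limma adjusted p = 1.38e-05). PSMB7 (0.63 ± 0.04 SE, limma adjusted p = 1.89e-05) and PSMC1 (0.45 ± 0.03 SE, limma adjusted p = 5.07e-05) were also higher, and PSMA3 was not called (0.07, but 0.15 and called without MS8815 replicate 1). Subunits of the cullin-2 VHL ligase, of a kind that PROTACs can recruit, were lower in 6 of 10 and higher in none, with a median of -0.22 (0.67 under B-cell scaling). Over all genes 24.3% were called lower. Among genes with a DMSO mean from 1000 to under 10000, where CUL2, CAND1 and TCEB2 lie, 57.8% were, with a median of -0.27. The list thus did not stand apart from genes of that level. CUL2, its scaffold, had a difference of -0.25 ± 0.05 (SE, limma adjusted p = 0.00433), and CAND1, the exchange factor of cullins, had a difference of -0.40 ± 0.04 (SE, limma adjusted p = 0.00032), and neither was called after quantile normalisation (-0.10 and -0.12). The elongin TCEB2 was not called (-0.14, interval -0.27 to -0.01, but -0.19 and called without MS8815 replicate 1).

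The ATF4 programme of amino acid stress was mixed, with 11 of 22 measured genes higher, 4 lower, a median of 0.15 and 1 in the adherent band. ATF4 itself had an interval of -0.11 to 0.05 around -0.03. ATF3, a stress factor, had 719 and 776 normalised reads with MS8815, 12.4 and 14.8 with EPZ-6438 and 10.8 and 21.3 with DMSO, a difference of 5.68 ± 0.34 (SE, limma adjusted p = 1.98e-05), SLC7A11, the cystine transporter, had 1911 and 2095 normalised reads with MS8815, 787 and 751 with EPZ-6438 and 819 and 777 with DMSO, a difference of 1.38 ± 0.07 (SE, limma adjusted p = 1.28e-05), and CEBPB had a difference of 1.17 ± 0.10 (SE, limma adjusted p = 0.000107). PSAT1, an enzyme of serine synthesis, was level (-0.05, interval -0.15 to 0.05). Endoplasmic reticulum chaperones were lower in 10 of 18 and higher in 5, with a median of -0.32 (0.57 under B-cell scaling). Genes with a DMSO mean from 1000 to under 10000 were called lower in 57.8% (median -0.27), and those above that in 77.6% (median -0.34). As 17 of the 18 were in the upper 50% by level over the 6 libraries, this count does not set the chaperones apart from abundant genes. HSPA5, the chaperone BiP, had 12584 and 12787 normalised reads with MS8815, 22413 and 22153 with EPZ-6438 and 24024 and 24447 with DMSO, a difference of -0.81 ± 0.02 (SE, limma adjusted p = 8.52e-07), and PDIA6, a disulfide isomerase, had a difference of -0.63 ± 0.03 (SE, limma adjusted p = 9.99e-06). Both were near or above 0 under B-cell scaling, at 0.08 and 0.26.

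Hypoxia targets were higher in 13 of 19 and lower in none, with a median of 0.68, and the 13 were higher under all 4 scalings. NDRG1 had 2792 and 2603 normalised reads with MS8815, 267 and 241 with EPZ-6438 and 214 and 271 with DMSO, a difference of 3.41 ± 0.13 (SE, limma adjusted p = 3.15e-06), and DDIT4, an mTORC1 inhibitor that ATF4 also drives, had 3076 and 2842 normalised reads with MS8815, 1097 and 1009.7 with EPZ-6438 and 885 and 939.5 with DMSO, a difference of 1.49 ± 0.07 (SE, limma adjusted p = 8.27e-06). SLC2A1, the GLUT1 glucose transporter, had a difference of 0.81 ± 0.06 (SE, limma adjusted p = 4.58e-05). The glycolytic genes LDHA (-0.01, interval -0.06 to 0.05) and PGK1 (-0.07, interval -0.17 to 0.03) were not called as deposited, and PGK1 was without MS8815 replicate 1 (-0.12). The adherent band held 6 of the 19, NDRG1 among them.

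Targets of p53, CDKN1A among them, were higher in 10 of 18 and lower in 5, with a median of 0.81 that was -0.04 after quantile normalisation and -0.14 over the 13 members in the upper 50% by level over the 6 libraries. CDKN1A was the 1 member in the adherent band. GADD45A had 1279 and 1279.5 normalised reads with MS8815, 629 and 589.5 with EPZ-6438 and 616 and 590.3 with DMSO, a difference of 1.07 ± 0.07 (SE, limma adjusted p = 3.71e-05). BBC3, the pro-apoptotic protein PUMA, had 359.6 and 347 normalised reads with MS8815, 116 and 116 with EPZ-6438 and 102 and 87.4 with DMSO, a difference of 1.60 ± 0.15 (SE, limma adjusted p = 0.00016), and TNFRSF10B, the TRAIL receptor, had a difference of 1.29 ± 0.09 (SE, limma adjusted p = 3.55e-05). BTG2, an antiproliferative target, was level at 0.02 with an interval of -0.05 to 0.10, and RRM2B was not called (-0.14). In the BCL2 family 7 of 15 were higher and 5 lower, with a median of -0.07 that turned to 0.02 after quantile normalisation and 0.82 under B-cell scaling. BCL2L1, the survival protein BCL-XL, had 3282 and 3462 normalised reads with MS8815, 919.6 and 945 with EPZ-6438 and 826 and 878 with DMSO, a difference of 1.85 ± 0.06 (SE, limma adjusted p = 1.9e-06). BCL2, the survival protein of this lymphoma class, had 4241 and 4313 normalised reads with MS8815, 6089 and 5899 with EPZ-6438 and 6468 and 6473 with DMSO, a difference of -0.49 ± 0.03 (SE, limma adjusted p = 3.98e-05), and its sign turned under B-cell scaling (0.40). BAK1 was not called (-0.07, interval -0.23 to 0.09).

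Immune genes were higher with the degrader in most members. Of 20 measured interferon-stimulated genes 16 were higher and none lower as deposited, with a median of 2.50, and 12 were higher under all 4 scalings, while quantile normalisation called 2 lower and gave a median of 1.67. The 3 members in the upper 50% by level over the 6 libraries had a median of 0.20. IFIT3 had 809 and 725 normalised reads with MS8815, 65.5 and 36.9 with EPZ-6438 and 43.1 and 49.3 with DMSO, a difference of 3.93 ± 0.28 (SE, limma adjusted p = 3.95e-05), IFITM3, a membrane protein that blocks virus entry, had 779.8 and 889.9 normalised reads with MS8815, 61.6 and 59.9 with EPZ-6438 and 32.7 and 46.9 with DMSO, a difference of 3.76 ± 0.21 (SE, limma adjusted p = 1.61e-05), and DDX58, the RNA sensor RIG-I, had 381 and 350.4 normalised reads with MS8815, 63.7 and 68.7 with EPZ-6438 and 49.6 and 53.9 with DMSO, a difference of 2.45 ± 0.17 (SE, limma adjusted p = 4.17e-05). MX2 (0.20) and STAT2 (-0.16), the latter a factor of the interferon response, were not called, but without MS8815 replicate 2 both were, at 0.42 and -0.53. The adherent band held 7 of the 20. In MHC class I presentation 10 of 14 measured were higher and 1 lower, with a median of 0.96, and HLA-B was the 1 member in the adherent band. B2M, the light chain, had 8888 and 9104 normalised reads with MS8815, 3958 and 3936 with EPZ-6438 and 4078 and 4286 with DMSO, a difference of 1.19 ± 0.04 (SE, limma adjusted p = 1.58e-06). HLA-B had 2958 and 3172 normalised reads with MS8815, 391 and 354 with EPZ-6438 and 240.3 and 214 with DMSO, a difference of 3.04 ± 0.10 (SE, limma adjusted p = 1.56e-06), and HLA-E had 1890.2 and 1947 normalised reads with MS8815, 243 and 280.4 with EPZ-6438 and 211 and 211 with DMSO, a difference of 2.87 ± 0.10 (SE, limma adjusted p = 2.25e-06). Reads of HLA genes can be divided among close copies, so these values are uncertain.

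MHC class II presentation split, with 6 of 12 measured higher and 3 lower, and its median of 0.53 became -0.23 after quantile normalisation. The adherent band held 2 of the 12. HLA-DRA had 505 and 466 normalised reads with MS8815, 88.7 and 86 with EPZ-6438 and 51.4 and 53.1 with DMSO, a difference of 2.46 ± 0.16 (SE, limma adjusted p = 2.54e-05). CD74, the invariant chain, had 4177 and 4211 normalised reads with MS8815, 9139 and 9121 with EPZ-6438 and 8055 and 8337 with DMSO, a difference of -1.12 ± 0.03 (SE, limma adjusted p = 9.41e-07), with -0.23 under B-cell scaling. HLA-DMA, the peptide editor, was not called (0.10). NF-kB subunits and targets were higher in 5 of 15 and lower in 6, with a median of -0.32 (0.57 under B-cell scaling). TRAF1 had a difference of 2.51 ± 0.23 (SE, limma adjusted p = 0.000126) and BIRC3 -0.32 ± 0.03 (SE, limma adjusted p = 0.000237), the latter turning to 0.57 under B-cell scaling, and TNFAIP3, the A20 inhibitor, was not called (-0.01). AP-1 and immediate early genes were higher in 11 of 13 measured and lower in 1, with a median of 2.74. FOSL1 had 2944 and 2954 normalised reads with MS8815, 229.6 and 219.5 with EPZ-6438 and 172 and 169 with DMSO, a difference of 3.71 ± 0.09 (SE, limma adjusted p = 4.67e-07), JUN 2936 and 3238 normalised reads with MS8815, 465 and 458 with EPZ-6438 and 366 and 397 with DMSO, a difference of 2.74 ± 0.08 (SE, limma adjusted p = 1.24e-06), and IER3 3182 and 3129 normalised reads with MS8815, 259 and 263 with EPZ-6438 and 214 and 186 with DMSO, a difference of 3.59 ± 0.10 (SE, limma adjusted p = 6.97e-07). JUNB was level (0.04, interval -0.13 to 0.21). The adherent band held 5 of the 13, with FOSL1 and IER3 within it.

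Transcripts of the mitochondrial genome and of the nuclear respiratory chain went apart. All 13 mitochondrially encoded transcripts were higher, with a median of 1.79, though quantile normalisation called 1 lower. MT-ND2, a complex I subunit, had 78272 and 81465 normalised reads with MS8815, 10494 and 11065 with EPZ-6438 and 12052 and 12637 with DMSO, a difference of 2.89 ± 0.04 (SE, limma adjusted p = 7.56e-08). MT-ATP6, an ATP synthase subunit, had 78913 and 80310.5 normalised reads with MS8815, 21072 and 22429 with EPZ-6438 and 23181 and 23953 with DMSO, a difference of 1.87 ± 0.03 (SE, limma adjusted p = 2.09e-07). Of 19 nuclear-encoded subunits 16 were lower and none higher, with a median of -0.42 (0.46 under B-cell scaling). Over all genes 23.4% were called higher and 24.3% lower. The 19 were all in the upper 50% by level over the 6 libraries. Genes with a DMSO mean from 1000 to under 10000 were called lower in 57.8% (median -0.27), and those above that in 77.6% (median -0.34). The count of lower subunits is to be read beside these shares. ATP5B, the catalytic beta subunit of ATP synthase, had 16482 and 16839.6 normalised reads with MS8815, 30023 and 30807 with EPZ-6438 and 31972 and 31945 with DMSO, a difference of -0.87 ± 0.02 (SE, limma adjusted p = 6.97e-07), and COX6C was level with an interval of -0.10 to 0.10. None of the mitochondrially encoded transcripts lay in the adherent band, which genes with many reads in the other libraries can miss. The part of the adherent-cell signal in these transcripts was not tested.

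RNAs that lack a poly(A) tail were far higher with the degrader. All 13 measured of 17 were called higher with MS8815, with a median of 3.83, against 3.70 for the adherent-cell markers, and after quantile normalisation the order of these 2 lists turned, at 3.29 and 3.61. RN7SL1, the RNA of the signal recognition particle, had 291080.0 and 294706 normalised reads with MS8815, 21388 and 20496 with EPZ-6438 and 17045 and 16238 with DMSO, a difference of 3.81 ± 0.03 (SE, limma adjusted p = 3.15e-09). RN7SK, which restrains transcription elongation, had 21838 and 22743 normalised reads with MS8815, 1562 and 1761 with EPZ-6438 and 1335 and 1399 with DMSO, a difference of 3.75 ± 0.06 (SE, limma adjusted p = 2.09e-07). In both genes the MS8815 libraries were more than 10-fold above all others. MT-RNR1, the small ribosomal RNA of mitochondria, had 326999 and 331759 normalised reads with MS8815, 11757 and 12413 with EPZ-6438 and 10922 and 10352 with DMSO, a difference of 4.77 ± 0.03 (SE, limma adjusted p = 2.75e-09), the largest difference among genes in the upper 50% by level over the 4 compound libraries whose groups did not overlap. The labels name 2 library kits without assigning them, so a kit and a compound cannot be told apart. The adherent band held 11 of these 13 RNAs.

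The rule for the largest differences took 8 genes in each direction from the upper 50% by mean log2 level over the 4 compound libraries, a cut that the MS8815 libraries help to set. Of the 8 higher genes 5 (MET, CXCL8, CRIM1, HSPA1A and U1) were not in the upper 50% over the 6 libraries, and 6 were not by level in DMSO, so most of these genes were low in the vehicle. All 8 lower genes were in the upper 50% by either cut. Besides MT-RNR1, HSPA1A and small RNAs (U1, SNORD3A and RN7SL2 at 4.04, all with near-identical copies), the higher side held 3 other protein-coding genes. MET, the receptor of hepatocyte growth factor in epithelia (GRCh38 chromosome 7, 116672390 to 116798386, plus strand), had 1238 and 1370.3 normalised reads with MS8815, 69.8 and 76.4 with EPZ-6438 and 79.8 and 61.6 with DMSO, a difference of 4.14 ± 0.17 (SE, limma adjusted p = 4.29e-06). CXCL8, the chemokine interleukin-8, had 1538 and 1492 normalised reads with MS8815, 89.5 and 84.1 with EPZ-6438 and 71.2 and 52.5 with DMSO, a difference of 4.11 ± 0.17 (SE, limma adjusted p = 4.66e-06). CRIM1, a membrane protein that binds bone morphogenetic proteins, had 1158 and 1620.3 normalised reads with MS8815, 79 and 85.2 with EPZ-6438 and 65.9 and 53.9 with DMSO, a difference of 4.05 ± 0.20 (SE, limma adjusted p = 8.96e-06). All 3 lay in the adherent band. SNORD3A, the U3 small nucleolar RNA, had a difference of 4.48 ± 0.19 (SE, limma adjusted p = 4.71e-06), and U1, whose EPZ-6438 libraries read 10.6 and 171.8, had a difference of 4.72 ± 1.41 (SE, limma adjusted p = 0.0283). Without EPZ-6438 replicate 1, U1 stood at 2.78 and was not called (limma adjusted p = 0.144), nor was it without either MS8815 library.

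On the lower side HTR3A, a serotonin-gated channel (GRCh38 chromosome 11, 113974881 to 113990313, plus strand), led with 368 and 306 normalised reads with MS8815, 1739 and 1729 with EPZ-6438 and 1389 and 1379 with DMSO, a difference of -2.37 ± 0.09 (SE, limma adjusted p = 3.91e-06). VPREB3 came next at -2.31. FAM65B had 349 and 287 normalised reads with MS8815, 1523 and 1435 with EPZ-6438 and 1233 and 1538 with DMSO, a difference of -2.22 ± 0.13 (SE, limma adjusted p = 1.98e-05), MUM1 300.0 and 238 normalised reads with MS8815, 1079.7 and 1025 with EPZ-6438 and 1093 and 1105 with DMSO, a difference of -1.97 ± 0.12 (SE, limma adjusted p = 1.84e-05), and NUGGC, a nuclear GTPase of germinal-centre B cells, 479 and 375 normalised reads with MS8815, 1569.5 and 1597 with EPZ-6438 and 1495 and 1493 with DMSO, a difference of -1.90 ± 0.11 (SE, limma adjusted p = 1.9e-05). In each of these genes the 2 MS8815 libraries lay far under the 4 others, among which EPZ-6438 and DMSO were near each other. These genes and the rest of the 8, NCF1B (-1.98), RP5-940J5.9 (-2.07) and XXbac-BPG252P9.9 (-1.78), stayed below 0 under B-cell scaling, from -1.48 for HTR3A to -0.89 for XXbac-BPG252P9.9. That scaling moved the median of all genes by 0.86, so genes chosen for falls of this size were bound to stay below 0. VPREB3 is also among the genes that set that scale. NCF1B is a near-identical copy of another gene, so its value is uncertain.

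A missing call did not show that the compounds acted alike, and the intervals set out where they could be told to differ by little. The 95% interval of the difference lay within 2-fold either way for 8780 genes (49.8%), of which 4299 were called and 4481 were not. It lay within 1.25-fold for 1621 genes (9.19%). Of the 9221 genes without a call, 4740 had intervals that reached past 2-fold, so a doubling could not be set aside for them. Nearly all of those were low: in the upper 50% by level over the 4 compound libraries, 7664 of 8817 genes (86.9%) had intervals within 2-fold, and 72 of the 3503 uncalled genes reached past it. HSP90AA1, LDHA, ELOVL5, BTG2 and COX6C were among the well-expressed genes within 1.25-fold as deposited, and under B-cell scaling these 5 stood between 0.88 and 0.91. After quantile normalisation all 5 were called, from -0.74 for HSP90AA1 to 0.31 for BTG2, so how alike the compounds looked at these genes rested on the scaling.

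Set beside the shared vehicle, the compounds lay at different distances from it. MS8815 minus DMSO had a median absolute difference of 0.51 with 28.4% of genes at 2-fold or more, and EPZ-6438 minus DMSO had 0.15 with 5.4% (953 genes). Limma called 8980 genes (50.9%) for MS8815 against DMSO and 0 (0%) for EPZ-6438 against DMSO, where 2046 genes (11.6%) had an unadjusted p under 0.05. Both use the same 2 DMSO libraries, so no overlap of the lists was taken. The band from 3 to 4.5 held 1597 genes for MS8815 minus DMSO and 15 for EPZ-6438 minus DMSO. Leaving out MS8815 replicate 1 gave 18 calls for EPZ-6438 against DMSO, and leaving out MS8815 replicate 2 gave 15, since the MS8815 pair enters the shared spread.

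**Figure D5:**
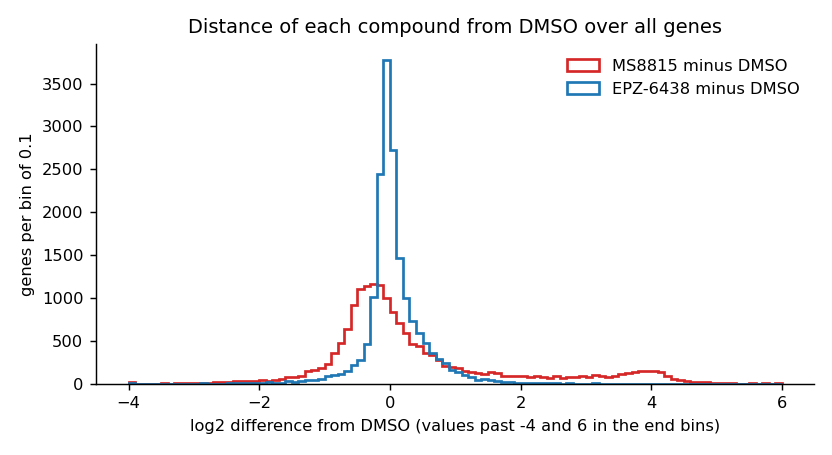
Outlines count genes per bin of 0.1 by their log2 difference from DMSO, red for MS8815 and blue for EPZ-6438, with values past -4 and 6 in the end bins. The EPZ-6438 outline is a narrow peak at 0, and the MS8815 outline is broad with a peak just under 0 and a low hump near 4.

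Genes with the clearest EPZ-6438 values, chosen after their values were seen, show how the compounds met or parted there. SYNE2, a nuclear envelope protein, had 3321 and 3648 normalised reads with MS8815, 5356 and 5429 with EPZ-6438 and 3886 and 3695 with DMSO, so the inhibitor pair was above both other groups, with a compound difference of -0.63 ± 0.05 (SE, limma adjusted p = 9.69e-05) and EPZ-6438 minus DMSO at 0.51 ± 0.05 (SE, limma adjusted p = 0.127). RGS16, a regulator of G-protein signalling, had 436 and 456 normalised reads with MS8815, 649 and 616 with EPZ-6438 and 404 and 393 with DMSO, a difference of -0.50 ± 0.09 (SE, limma adjusted p = 0.00288), with EPZ-6438 minus DMSO at 0.66 ± 0.09 (SE, limma adjusted p = 0.15). Under B-cell scaling the compound difference turned to 0.26 for SYNE2 and 0.38 for RGS16. CNOT6L, a deadenylase, was low with the inhibitor alone, with 374 and 379.9 normalised reads with MS8815, 189.7 and 233 with EPZ-6438 and 364 and 412 with DMSO, a difference of 0.84 ± 0.14 (SE, limma adjusted p = 0.00213). FRYL had 1532 and 1725 normalised reads with MS8815, 1569 and 1547 with EPZ-6438 and 2128 and 2156 with DMSO, and ATR, a checkpoint kinase, 897 and 959.9 normalised reads with MS8815, 955 and 993 with EPZ-6438 and 1343 and 1350.0 with DMSO. Both genes were under DMSO with either compound, and their compound differences of 0.06 and -0.07 were not called. None of the 5 passed the adjusted threshold for EPZ-6438 against DMSO.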

How the data were processed

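RNA sequencing libraries of SUDHL6 cells, 2 each for DMSO, MS8815 and EPZ-6438, were analysed at 2.5 µM and 18 h. The authors deposited a table for each compound that repeats the DMSO pair, with values on a log2-type scale which the table names of the authors give as the DESeq2 variance-stabilising transform. STAR 2.4.2, Salmon and the build GRCh38 are named in the submitters' processing notes. Each table was inverted to normalised counts in closed form. The DMSO libraries then differed between tables by 1 constant per gene and 1 per library (largest deviation 7.11e-11, log2), which put both tables on the MS8815 scale. The constant came from both DMSO libraries for 17324 genes, from 1 for 286 and from the table median for 24.

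Limma 3.58.1 (R 4.3.3) with a variance trend was fitted to log2(normalised count + 1) of 6 libraries (3 residual degrees of freedom), two-sided, with 95% intervals and no filter. The fit was run on counts simulated from the DMSO means of the joined scale, and the inversion on known counts. Neither included the joining of the tables. Depth was estimated from the spacing of low values, where 48.8% to 60% were whole reads within 0.02 of a read, against 4% by chance, which was too few for a count test. Members, the 35 gene lists and the tests were chosen with earlier results of these data known. Named genes are 13 of EZH2 and sterol biology, the 8 largest called differences each way in the upper 50% by mean log2 level over the 4 compound libraries without overlap, and per list up to 4 members of smallest p and 2 uncalled members of narrowest interval. Not every gene the rule takes is described, and some are not reported here. Alternatives were the libraries in the fit, pseudocounts of 0.1 and 10, filters on low values, 3 other scalings, the table scale, the trend, a replicate block and leaving out each replicate. Coordinates are from GENCODE on GRCh38 (83.5% of genes matched), and promoter windows from RefSeq.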

Additional observations from a re-analysis of the deposited data

How the results depend on the processing

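The count of genes called between the compounds was 8413. It kept within 1.5 times that number under every alternative run except the upper 50% of genes by mean level over the 6 libraries (5398, with 1518 higher) and B-cell scaling (12722, with 12469 higher and 253 lower), and leaving out 1 library gave 6362 to 9051. Testing fewer genes is part of the first by construction, and the cause of the second was not tested. Genes with an interval within 2-fold numbered 8780 and 5469 under B-cell scaling. Genes called between MS8815 and DMSO numbered 8980, and 5763 in the upper 50% by level. Between EPZ-6438 and DMSO 0 were called, against 2 after quantile normalisation and 0 to 18 when 1 library was left out, where the lone library of a group is taken to vary like the other groups.

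B-cell scaling turned the sign of the median of these lists, in log2 units: B-cell receptor signalling 0.03, BCL2 family 0.82, DNA replication 0.41, MYC and ribosome biogenesis 0.29, NF-kB subunits and targets 0.57, PRC2 subunits 0.60, T-cell and NK-cell markers 0.43, cholesterol synthesis 0.17, cullin-2 VHL ligase 0.67, cytosolic heat-shock proteins 0.77, endoplasmic reticulum chaperones 0.57, germinal-centre genes 0.11, mitosis 0.33, nuclear respiratory chain subunits 0.46 and ribosomal proteins 0.69. It turned these named genes that were called as deposited: ACLY 0.32, ATP5B 0.02, BCL2 0.40, BIRC3 0.57, CAND1 0.49, CCNA2 0.14, CD79B 0.04, CDC20 0.05, CUL2 0.64, EED 0.16, EZH2 0.60, FDPS 0.01, GINS2 0.07, HSPA5 0.08, HSPA8 0.15, HSPD1 0.11, HSPH1 0.01, INSIG1 0.57, MCM5 0.29, MCM7 0.49, MEF2B 0.11, MYC 0.49, NCL 0.12, NOP56 0.18, PCNA 0.20, PDIA6 0.26, RBBP4 0.29, RBBP7 0.42, RGS16 0.38, RPL4 0.54, SREBF2 0.36 and SYNE2 0.26. It also turned 18 named genes without a call as deposited, among them SUZ12 (0.83), ACAT2 (0.82) and PAX5 (0.54), and all 18 were then called higher. Quantile normalisation turned the lists BCL2 family 0.02, MHC class II presentation -0.23, p53 targets -0.04 and plasma-cell markers -0.14, the upper 50% by level turned MHC class II presentation -0.51, fatty acid synthesis -0.01, p53 targets -0.14, plasma-cell markers -1.36 and polycomb-regulated developmental genes -0.56 (where the developmental list has 1 member left and MHC class II presentation 2), and leaving out MS8815 replicate 1 turned BCL2 family 0.10 and plasma-cell markers -0.43. Over the libraries left out in turn, the BCL2 family median ran from -0.07 to 0.10 and the plasma-cell median from -0.43 to 0.90. Quantile normalisation turned 15 named genes that had no call as deposited, of which 7 were then called: ATF4 0.25, ELOVL5 0.19, HLA-DMA -0.44, HSP90AA1 -0.74, LDHA 0.06, PGK1 0.21 and PSAT1 0.19. No named gene that was called as deposited turned under any alternative run other than B-cell scaling, and 1 to 4 uncalled ones turned under median-of-ratios scaling or without 1 compound library, none with a call. Quantile normalisation also moved these medians by over 1.5 times with the sign kept: PRC2 subunits -0.11, DNA replication -0.25, mitosis -0.32, MYC and ribosome biogenesis -0.37, ATF4 programme 0.35, endoplasmic reticulum chaperones -0.16, NF-kB subunits and targets -0.20, proteasome subunits 0.61, cullin-2 VHL ligase -0.05, nuclear respiratory chain subunits -0.24, fatty acid synthesis 0.17 and T-cell and NK-cell markers -1.48. The causes were not tested, and the germinal-centre genes, CD79B, MEF2B and PAX5 are among the genes that set the B-cell scale.

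The replicate numbers did not pair the samples. Same-numbered libraries of different groups had correlations of -0.0405, 0.00448 and 0.00109 in their deviations from the group means over 8817 genes. With a replicate block 8198 genes were called, and of the genes named SCAP alone changed its call (0.22, limma adjusted p = 0.0377). The low depth of the MS8815 libraries limits low genes most, and 939 genes were at 0 in at least 1 of them, against 339 for EPZ-6438.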

Other observations

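Replication-dependent histone genes, whose messages normally end without a poly(A) tail, were higher with MS8815 than with EPZ-6438 in 22 of 49 measured genes (44.9%) and lower in none, with a median difference of 0.89 on the log2 scale as deposited. Their median for EPZ-6438 minus DMSO was 0.22. By gene class, 28.5% of 13157 protein-coding genes were higher and 28.8% lower, against 14.9% and 13.5% of 215 lincRNAs and 8.33% and 7.38% of 420 processed pseudogenes.

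By chromosome, chromosome 6 had the largest share of genes called higher among the nuclear chromosomes (258 of 764, 33.8%) and chromosome 16 the smallest (110 of 684, 16.1%). Of the 19 genes measured on the mitochondrial chromosome 16 were higher and none was lower. These shares are descriptions with no test, and neighbouring genes are not independent.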
